A study of Mus musculus with 6 samples.

Results

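The gene set described here holds 50 genes of the Wnt signalling system, taken by symbol from the 37991 Ensembl genes of the count files. They comprise 16 Wnt ligands, 4 R-spondins, 10 Frizzled receptors, the co-receptors Lrp5 and Lrp6, 9 secreted inhibitors, and 9 nuclear factors, targets and intracellular regulators. All 50 had a row in the files, and 49 passed the filter on low counts. Wnt1 did not, with 14 reads over the 3 FGF2 embryos and 2 over the 3 vehicle embryos, which scaled for library size is a ratio of 6.09 (95% exact binomial interval 1.4 to 55.2, for counting error only).

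RNA was sequenced from the dorsal telencephalon, the forebrain wall that gives rise to the neocortex and the hippocampus, of embryonic CD1 mice at E13.5. Embryos FGF2 6, 7 and 8 had received 100 ng of the growth factor FGF2 in the cerebral ventricles, and embryos vehicle 7, 8 and 9 had received PBS with 0.1% BSA. Each embryo gave 1 library, made from formalin-fixed frozen sections on slides, cut anterior to the hippocampus. All 6 embryos were therefore injected and fixed, and no genetic change is labelled in either group. The time from injection to collection and the litters are not given in the sources used here.

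Wnt proteins are lipid-modified secreted signals that bind Frizzled receptors together with Lrp5 or Lrp6, which stabilises beta-catenin and lets it activate target genes through the TCF and LEF factors. R-spondins raise the number of Frizzled receptors at the cell surface by acting on Lgr receptors and the ubiquitin ligases Rnf43 and Znrf3, whereas Sfrp proteins, Wif1, Dkk1 and Notum dampen the signal outside the cell. In the embryonic cortex the cortical hem, at the medial edge of the cortical field, is a known source of several Wnt ligands, and Wnt7a and Wnt7b are known as ligands of the neural progenitor zone and the cortex itself.

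Total counts were 64631136 to 81532334 for the FGF2 libraries and 61489462 to 68101511 for the vehicle libraries. Every count of vehicle 9 was even, and halving them moved no call of a member. Reads of Y-linked genes numbered 10475 to 16232 in FGF2 6, 7 and 8 and in vehicle 7, and 22 in each of vehicle 8 and vehicle 9. The summed level of 10 dorsal telencephalon markers was 2132 to 2260 CPM (read counts scaled to a common library size by TMM factors) in the FGF2 embryos and 2986 to 3173 CPM in the vehicle embryos, with 4 of the 10 lower, 0 higher and 6 not past the test. Choroid plexus markers summed to 171 to 485 against 21.3 to 23.1 CPM (6 of 8 higher, 1 lower), ventral telencephalon markers to 465 to 649 against 30.2 to 123 CPM (7 of 10 higher), and thalamus and diencephalon markers to 170 to 336 against 78.9 to 85.5 CPM (3 of 8 higher). The markers Htr2c and Folr1, Lhx8 and Gsx1, and Gbx2 of these 3 lists were at 0 in at least 1 vehicle embryo. Most of the choroid plexus sum in the vehicle embryos was Aqp1 (19.5 to 20.3 CPM), the 1 marker of that list that was lower. Otx2 was at 0.444 to 1.95 CPM and Ttr at 0.0898 to 0.444 CPM in the vehicle embryos. Meninges and mesenchyme markers summed to 2213 to 2489 against 3559 to 4091 CPM (2 of 8 lower, 1 higher) and microglia markers to 100.5 to 117 against 64.3 to 78.8 CPM (3 of 8 higher). Endothelium markers stood at 217 to 244 against 206 to 236 CPM (0 of 8 past the test). Cortical hem and roof plate markers, of which 2 of 8 were higher (Lmx1a and Bmp6), summed to 149, 118 and 82.8 CPM in FGF2 6, 7 and 8 and to 98.8 to 105.5 CPM in the vehicle embryos. The part of these other tissues in the values of the Wnt genes was not tested, and in such bulk samples fewer cells of a type and less RNA per cell cannot be told apart.

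The Wnt genes showed many differences in both directions. Of the 49 tested with edgeR's quasi-likelihood test, 10 were higher in the FGF2 embryos at an adjusted p under 0.05 (20.4%, beside 2.68% of all 21983 genes tested) and 3 were lower (6.12%, beside 0.951% of all genes). The remaining 36 did not pass. The CPM of the 3 FGF2 embryos lay wholly above that of the 3 vehicle embryos for 18 members (36.7%, beside 14.6% of all genes) and wholly below it for 12 (24.5%, beside 13.6%). The median log2 fold change of FGF2 over vehicle was 0.20 over the 49 members and 0.01 over all genes, and the median size of the change without its sign was 0.47 and 0.20. All 13 members past the test were also separated between the groups, in the same direction, in the authors' RPKM values, which scale reads by gene model length and library size. Of these 13, Wnt5a and Rspo1 lie in spans that overlap another gene (Gm2670 and Gm12930), so their counts are not theirs alone. At an unadjusted p under 0.05, 18 members were higher (beside 11.2% of all genes) and 10 lower (beside 8.13%). DESeq2 called 14 of the 49 higher (beside 6.12% of all genes) and 8 lower (3.65%), and voom 15 higher (5.79%) and 7 lower (4.49%).

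**Figure D1:**
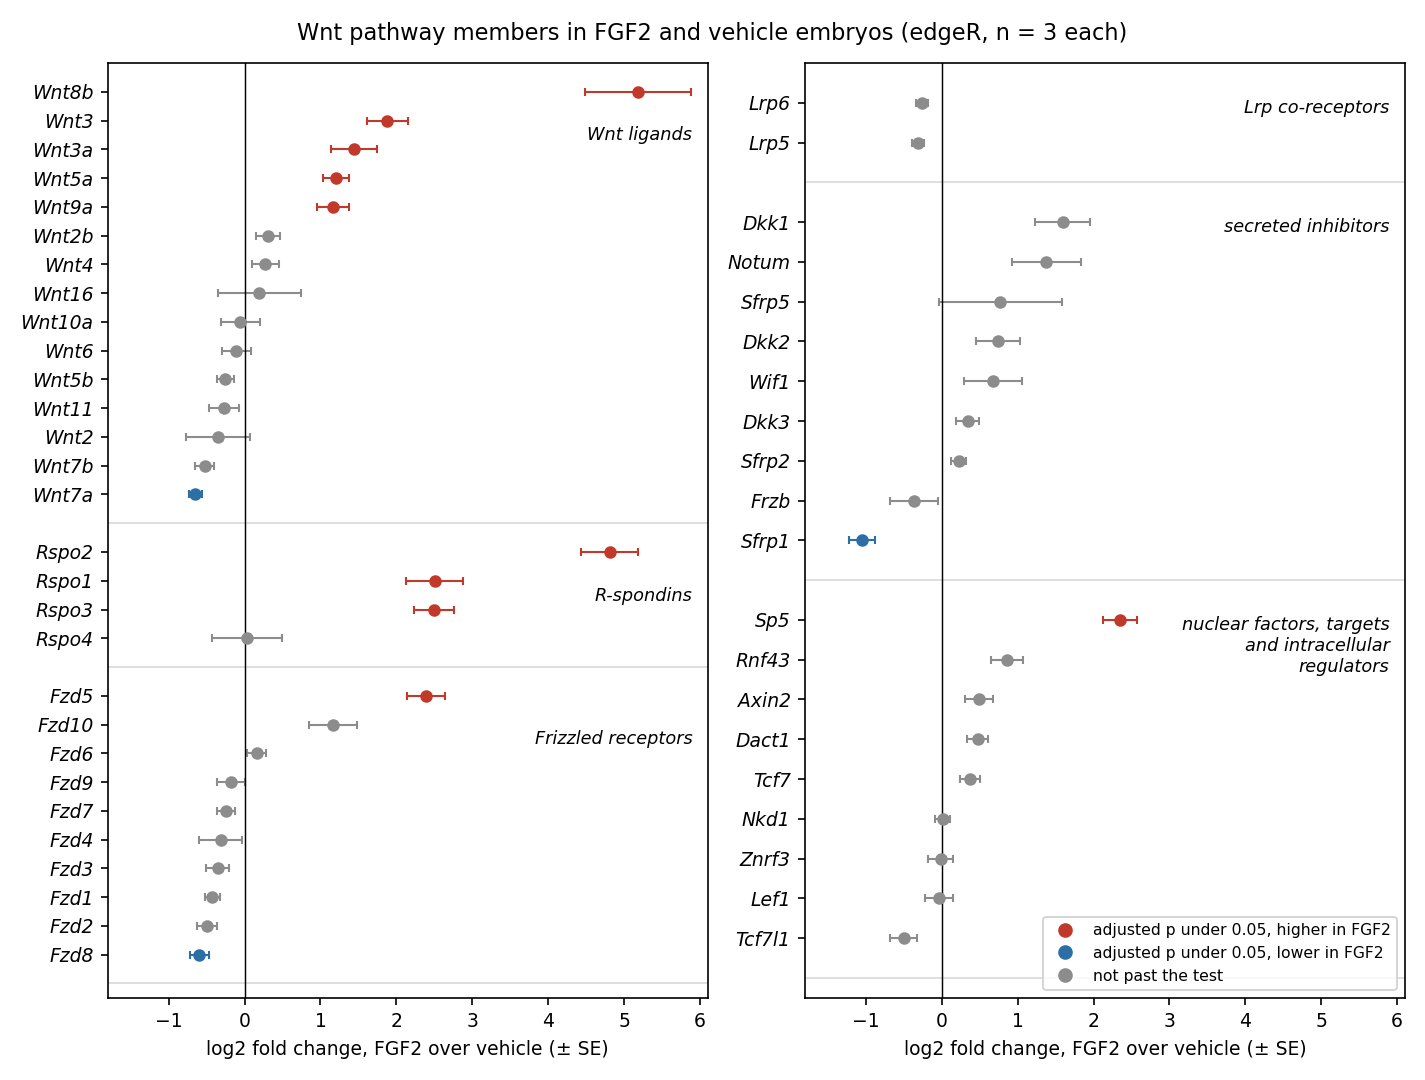
Log2 fold change of FGF2 over vehicle for each of the 49 members tested, with its standard error, grouped by role; red and blue points passed the edgeR test at an adjusted p under 0.05. The points run from -1.05 (Sfrp1) to 5.18 (Wnt8b), and 3 of the 4 R-spondins lie above 2.

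These calls rest on few embryos. With each embryo left out in turn, the number of members called higher ran from 4 (without vehicle 8) to 14 (without FGF2 8), with 5 without vehicle 7 and 6 without vehicle 9. Calls over all genes moved as well, from 181 higher without vehicle 8 to 964 without FGF2 8. The number called lower ran from 0 (without vehicle 7 or vehicle 8) to 6 (without FGF2 8), with 1 without FGF2 7 and 1 without vehicle 9, and over all genes 37 to 979 were lower in the fits without vehicle 8 and without FGF2 8. Fzd5, Rspo2, Rspo3 and Sp5 were called whichever embryo was left out. Vehicle 7 was the only vehicle embryo with Y-linked reads at the level of the FGF2 embryos. A fit with their presence as a covariate therefore compares the FGF2 embryos with vehicle 7 alone. Such a fit cannot tell an effect of sex from that of fewer vehicle embryos. With the presence of Y-linked reads as a covariate no member was called by edgeR, and of all 21983 genes only 4 were called higher and 1 lower. At an unadjusted p under 0.05 this fit had 14 members higher (beside 5.55% of all genes) and 5 lower (3.03%), and all 13 kept their direction, for instance at a log2 fold change of 4.77 for Rspo2 (adjusted p = 0.0813) and 2.24 for Sp5 (0.120).

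Among the Wnt ligands, 5 of the 15 tested rose (33.3%, beside 2.68% of all genes). Of the 15, 1 fell (6.67%, beside 0.951%) and 9 did not pass. Wnt8b, a ligand known from the hem and the neighbouring hippocampal field, lies at chromosome 19, 44567962 to 44588763 (NCBIM37). It had 35.8, 29.96 and 8.60 CPM in FGF2 6, 7 and 8, against 0.229, 0.913 and 0.889 CPM in vehicle 7, 8 and 9. All 3 FGF2 embryos lay far above all vehicle embryos, and FGF2 8 had the smallest of the 3 rises. On the log2 scale Wnt8b rose by 5.18 ± 0.70 (SE, edgeR adjusted p = 0.0131). Per length, it ranked 3 of the 16 ligands by mean RPKM in the FGF2 embryos, against 14 in the vehicle embryos.

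Wnt3 and Wnt3a, close paralogs that activate beta-catenin and of which Wnt3a is a defining ligand of the hem, rose less. Wnt3 (chromosome 11, 103635464 to 103679271) had 12.7, 6.48 and 7.82 CPM in the FGF2 embryos, against 2.24, 2.75 and 2.35 CPM in the vehicle embryos, a rise of 1.88 ± 0.27 (adjusted p = 0.0113). Wnt3a (chromosome 11, 59061535 to 59104254) had 5.35, 5.64 and 2.63 CPM in FGF2 6, 7 and 8, against 1.59, 1.65 and 1.78 CPM, a rise of 1.44 ± 0.30 (adjusted p = 0.0454). In both genes the groups did not overlap, but FGF2 8 came within 1 CPM of the highest vehicle embryo for Wnt3a.

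Wnt5a, a ligand best known for signalling without beta-catenin and for planar polarity, had 32.9, 33.7 and 24.6 CPM in the FGF2 embryos, against 11.6, 11.9 and 16.0 CPM in the vehicle embryos. It rose by 1.21 ± 0.17 (chromosome 14, 29317936 to 29340633, adjusted p = 0.0113). Wnt9a (chromosome 11, 59120430 to 59147054) had 7.44, 7.53 and 4.71 CPM against 3.01, 2.92 and 2.86 CPM, a rise of 1.16 ± 0.21 (adjusted p = 0.0303). Its span begins 16.2 kb beyond that of Wnt3a, and both neighbours rose. The other close pairs did not share a call. Wnt3 rose, whereas Wnt9b, 24.3 kb away, had a log2 fold change of 0.27 (adjusted p = 0.792). In the pair Wnt6 and Wnt10a, 6.2 kb apart on chromosome 1, neither passed, at -0.11 and -0.06.

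Wnt7a, which acts on neural progenitors and on brain vessels, was the ligand that fell. It had 25.6, 29.3 and 27.5 CPM in the FGF2 embryos, against 42.5, 45.4 and 41.1 CPM in the vehicle embryos, and fell by 0.65 ± 0.09 on the log2 scale (chromosome 6, 91313975 to 91361357, adjusted p = 0.0101). Its paralog Wnt7b, the ligand with the highest mean RPKM, had 79.4, 73.0 and 85.2 CPM against 98.3, 135 and 109 CPM, which did not overlap but did not pass (-0.52 ± 0.12, adjusted p = 0.0666). The remaining 8 ligands tested (Wnt2, Wnt2b, Wnt4, Wnt5b, Wnt6, Wnt10a, Wnt11 and Wnt16) had log2 fold changes of -0.35 (Wnt2) to 0.31 (Wnt2b), and none passed with edgeR or was below an unadjusted p of 0.05.

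Summed over the 16 ligands, the RPKM level was 59.5 ± 7.91 in the FGF2 embryos, against 58.6 ± 5.69 in the vehicle embryos (SD, n = 3 each; two-sided exact permutation test, p = 0.9), and the groups overlapped. The sum was made up differently. Wnt7a and Wnt7b together held 42.0%, 45.3% and 57.6% of it in FGF2 6, 7 and 8, against 68.6%, 71.1% and 67.9% in vehicle 7, 8 and 9. The 5 ligands that rose, chosen after their values were seen, held 31.96%, 30.9% and 20.3% in the FGF2 embryos, against 6.71%, 6.18% and 7.74% in the vehicle embryos. In RPKM this was 28.3 ± 0.955 against 40.6 ± 4.92 for the Wnt7 pair and 16.8 ± 5.74 against 4.01 ± 0.370 for the other 5. The share of Wnt7b alone was 32.8 ± 6.17% in the FGF2 embryos, against 45.4 ± 2.87% in the vehicle embryos (exact permutation test, p = 0.1, the smallest two-sided p that 3 against 3 embryos allow).

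**Figure D2:**
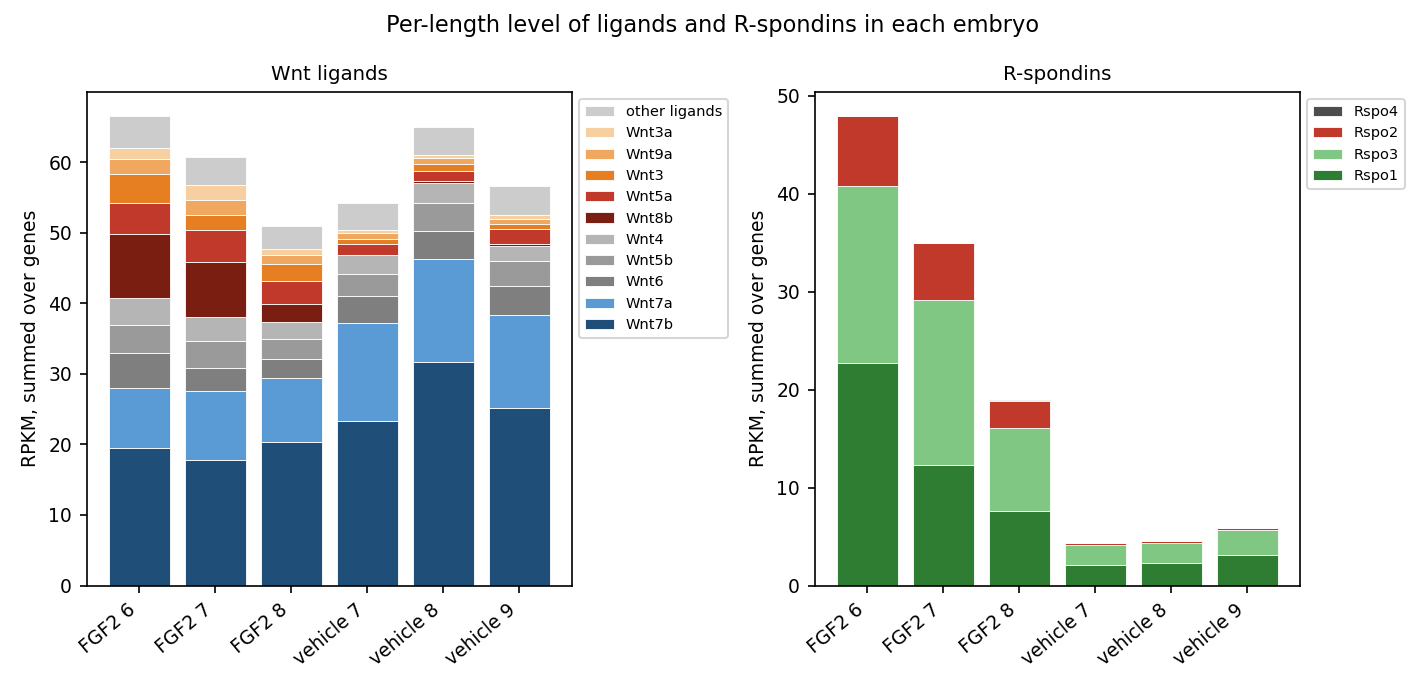
RPKM of each ligand (left) and each R-spondin (right), stacked to the summed level of each of the 6 embryos. The ligand bars reach similar heights in both groups while the blue Wnt7a and Wnt7b blocks fill 42.0% to 57.6% of them in FGF2 embryos and 67.9% to 71.1% in vehicle embryos; the R-spondin bars stand at 18.9 to 48.0 in FGF2 embryos and 4.39 to 5.85 in vehicle embryos.

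Of the 6 calls among the ligands, that of Wnt8b was lost without vehicle 8 (adjusted p = 0.0654) and without a low-count filter (0.0526), those of Wnt5a and Wnt7a without vehicle 7 or vehicle 8 (up to 0.0770 and 0.0718) and that of Wnt3 without any 1 vehicle embryo (up to 0.0679). The calls of Wnt3a and Wnt9a, with the highest adjusted p of the 6, were lost without any 1 embryo other than FGF2 8 (up to 0.190 and 0.141).

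The R-spondins had the highest median log2 fold change of the 6 classes, 2.50, and 3 of 4 rose (75%, beside 2.68% of all genes). Rspo2 (chromosome 15, 42852357 to 43002364) had 25.8, 19.2 and 9.95 CPM in FGF2 6, 7 and 8, against 0.671, 0.554 and 0.730 CPM in vehicle 7, 8 and 9. Its log2 fold change was 4.81 ± 0.38 (SE, edgeR adjusted p = 0.00158) and ran from 4.48 to 5.11 in the 6 fits without 1 embryo. Rspo3 (chromosome 10, 29172915 to 29255673) had 43.9, 40.1 and 21.1 CPM against 6.17, 5.92 and 6.60 CPM, a log2 fold change of 2.49 ± 0.26 (adjusted p = 0.00394) that ran from 2.30 to 2.75 in those fits. In both genes the vehicle embryos lay close together and FGF2 8 rose least.

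Rspo1, which with Rspo3 had the highest RPKM of this class (14.2 for Rspo1 and 14.5 for Rspo3 in the mean of the FGF2 embryos, 2.48 and 2.24 in that of the vehicle embryos), lies at chromosome 4, 124663674 to 124686343. It had 43.8, 23.5 and 15.1 CPM in the FGF2 embryos, against 4.04, 4.53 and 5.97 CPM in the vehicle embryos, a rise of 2.50 ± 0.38 on the log2 scale (SE, edgeR adjusted p = 0.0170). Its groups were well apart, with a wide range within the FGF2 embryos, and its call was lost when vehicle 7, 8 or 9 was left out (adjusted p up to 0.0952). Rspo4 was hardly detected, at a mean of 0.252 CPM in the FGF2 embryos, against 0.245 CPM in the vehicle embryos, and did not pass.

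The summed RPKM of the 4 R-spondins was 48.0, 35.0 and 18.9 in the FGF2 embryos, against 4.39, 4.56 and 5.85 in the vehicle embryos, with an FGF2 mean 6.89 times the vehicle mean (exact permutation test, p = 0.1). Rspo2 made up 15.4 ± 1.03% of the sum in the FGF2 embryos, against 3.76 ± 0.603% in the vehicle embryos, and Rspo1 41.0 ± 6.08% and 49.97 ± 2.48%. Lgr4, an R-spondin receptor outside the 50 genes, had 20.1, 25.6 and 16.0 CPM in the FGF2 embryos, against 8.52, 7.90 and 7.49 CPM in the vehicle embryos, and rose by 1.37 ± 0.18 (adjusted p = 0.00783). The groups of Lgr4 did not overlap, and its call was lost without vehicle 8 (adjusted p = 0.0570). Of the 2 ubiquitin ligases that R-spondins inhibit, Rnf43 had 3.90, 3.81 and 2.75 CPM against 1.75, 2.05 and 1.97 CPM (log2 fold change 0.86, adjusted p = 0.0740) and Znrf3 28.0, 22.2 and 17.2 CPM against 22.5, 22.7 and 22.8 CPM (-0.01, adjusted p = 0.976). Rnf43 was thus separated between the groups without passing, and Znrf3 was spread around its vehicle level.

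**Figure D3:**
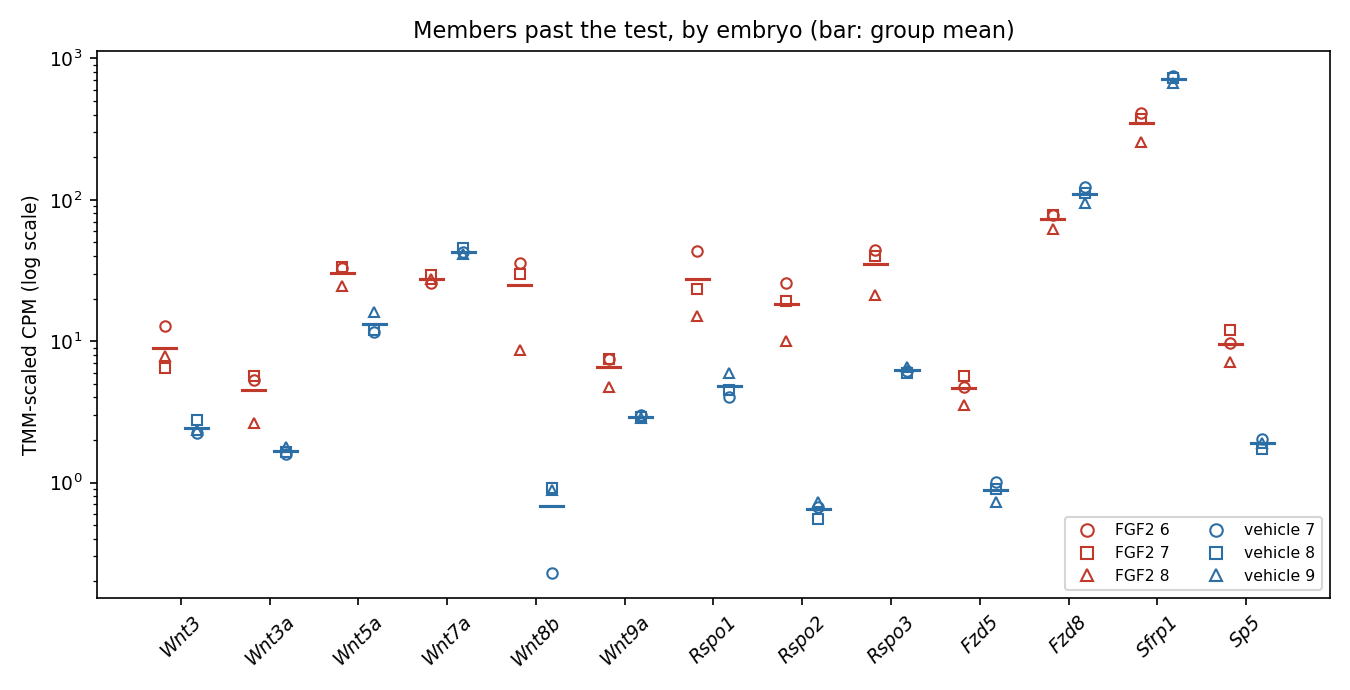
TMM-scaled CPM of the 13 members past the test in each embryo, on a log axis, FGF2 embryos to the left of vehicle embryos for each gene, bars at the group means. FGF2 8 (red triangles) is the lowest FGF2 embryo in 9 of the 10 genes that were higher, and no gene has overlapping groups.

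FGF2 8 was usually the lowest of the FGF2 embryos in these genes, with no fixed order between FGF2 6 and FGF2 7. Among the 10 members that rose, FGF2 8 had the lowest of the 3 FGF2 values in 9 (the exception was Wnt3), beside 30.2% of all genes called higher, and FGF2 6 and FGF2 7 each had the highest in 5. Among the 12 members whose FGF2 embryos all lay below the vehicle embryos, FGF2 8 was the lowest of the 3 in 10, beside 57.1% of all genes wholly below. FGF2 8 also had the lowest summed hem and roof plate markers and the highest summed choroid plexus markers. Most of that choroid plexus sum was Ttr, so its order among the FGF2 embryos rests largely on 1 gene. Ttr, Kcne2, Htr2c and Folr1 were highest in FGF2 8, Otx2 and Aqp1 were lowest in it, and Clic6 and Kl lay between.

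Of the 10 Frizzled receptors, the seven-pass receptors of Wnt ligands, 1 was called higher (10%, beside 2.68% of all genes). Another 1 was called lower (10%, beside 0.951%), and 8 did not pass. In CPM the FGF2 embryos lay wholly below the vehicle embryos for 5 (50%, beside 13.6% of all genes). They lay wholly above for 2 (20%, beside 14.6%). DESeq2 called 2 higher and 3 lower, beside 6.12% and 3.65% of all genes. With voom 1 was higher and 3 were lower, beside 5.79% and 4.49%. Fzd5, which in mouse is known from the developing eye and ventral forebrain, lies at chromosome 1, 64777134 to 64784324. It had 4.72, 5.62 and 3.53 CPM in the FGF2 embryos, against 1.01, 0.898 and 0.730 CPM in the vehicle embryos. Every FGF2 embryo was above 3 CPM and no vehicle embryo far above 1, a rise of 2.39 ± 0.25 on the log2 scale (SE, edgeR adjusted p = 0.00374). Per length Fzd5 remained a minor receptor in both groups, at an RPKM of 0.555 to 0.866 in FGF2 embryos and 0.112 to 0.157 in vehicle embryos, while Fzd2, the receptor with the highest mean, had 26.8 to 39.6 and 45.2 to 47.8.

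Fzd8, a receptor of cortical progenitors, had 78.2, 77.7 and 61.9 CPM in the FGF2 embryos, against 124, 111 and 95.5 CPM in the vehicle embryos. It fell by 0.60 ± 0.13 (adjusted p = 0.0464), a call lost without any 1 embryo other than FGF2 8 (up to 0.184) and with library totals in place of TMM scaling. Fzd2 had 121, 133 and 91.7 CPM against 165, 162 and 159 CPM (-0.49 ± 0.13, adjusted p = 0.0929) and Fzd1 57.7, 61.5 and 49.0 CPM against 70.3, 78.5 and 76.8 CPM (-0.42 ± 0.10, adjusted p = 0.0654). Neither overlapped between the groups and neither passed.

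Fzd10, a receptor known from the hem and dorsal neural tube, had 25.7, 11.1 and 12.5 CPM in the FGF2 embryos, against 6.59, 8.35 and 7.02 CPM in the vehicle embryos, the value of FGF2 6 standing above the rest. It did not pass (1.17 ± 0.32, adjusted p = 0.0984), and the files list a second Fzd10 identifier nested in the same span (1.05, adjusted p = 0.188), so the reads of the 2 cannot be told apart and its RPKM was left out of the sums. Of the co-receptors, Lrp6 had 109, 107 and 97.6 CPM against 121, 133 and 122 CPM (-0.26 ± 0.08, adjusted p = 0.124). Lrp5 had 50.8, 47.3 and 44.1 CPM against 58.5, 59.9 and 57.8 CPM (-0.31 ± 0.08, adjusted p = 0.0826). Both were lower in every FGF2 embryo than in any vehicle embryo, beside 13.6% of all genes. With edgeR 0 of 2 passed (0.951% of all genes were lower), and both had an unadjusted p under 0.05 (8.13%). DESeq2 called 2 lower and voom 1, beside 3.65% and 4.49% of all genes. Summed RPKM was 94.1 ± 15.7 in the FGF2 embryos, against 122 ± 5.19 in the vehicle embryos for the 9 other Frizzled genes, and 14.8 ± 1.43 and 17.9 ± 0.715 for the 2 co-receptors (exact permutation test, p = 0.1 for each).

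Among the 9 secreted inhibitors, 1 fell (11.1%, beside 0.951% of all genes) and 0 rose (beside 2.68%), and Sfrp1 carried the class. In CPM the FGF2 embryos lay wholly above the vehicle embryos for 3 (33.3%, beside 14.6% of all genes). They lay wholly below for 1 (11.1%, beside 13.6%). Of those above, Dkk2 and Notum overlapped between the groups in RPKM. Sfrp1, a Frizzled-related protein that binds Wnt ligands and is made by cortical progenitors, lies at chromosome 8, 24521974 to 24560104. It had 409, 375 and 255 CPM in the FGF2 embryos, against 755, 726 and 671 CPM in the vehicle embryos. All FGF2 embryos lay below all vehicle embryos, and Sfrp1 fell by 1.05 ± 0.17 on the log2 scale (SE, edgeR adjusted p = 0.0195), the largest fall among the 49 members tested. Leaving out FGF2 7 or vehicle 7, 8 or 9 ended the call (adjusted p up to 0.0911).

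Sfrp1 held 63.3 ± 3.69% of the summed RPKM of the 9 inhibitors in the FGF2 embryos, against 81.9 ± 0.472% in the vehicle embryos. The sum itself was 136, 131 and 90.7 in FGF2 6, 7 and 8, against 197, 189 and 193 in vehicle 7, 8 and 9, or 0.617 of the vehicle mean (exact permutation test, p = 0.1). Sfrp2 was the paralog next in level. It had an RPKM of 24.5, 30.5 and 25.8 in the FGF2 embryos, against 22.4, 23.7 and 21.8 in the vehicle embryos. In CPM its groups overlapped (49.5, 61.7 and 54.0 against 46.7, 49.8 and 45.2). Sfrp2 did not pass on the counts (log2 fold change 0.22, adjusted p = 0.273). Its share of the sum was 23.2 ± 5.22% against 11.7 ± 0.686%.

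Of the other inhibitors, Dkk1, which blocks Lrp co-receptors and is itself a known beta-catenin target, had 2.88, 2.21 and 1.31 CPM in the FGF2 embryos, against 0.736, 0.494 and 0.889 CPM in the vehicle embryos. Its groups did not overlap and it did not pass (1.60 ± 0.36, adjusted p = 0.0580). Notum, an enzyme that removes the lipid from Wnt proteins, had 1.12, 1.66 and 0.995 CPM against 0.801, 0.239 and 0.413 CPM (1.38 ± 0.45, adjusted p = 0.15), over a span shared with other genes. Dkk2 had 32.7, 16.2 and 14.5 CPM against 12.2, 13.0 and 13.0 CPM (0.74 ± 0.29, adjusted p = 0.222). Dkk3, Sfrp5, Frzb and Wif1 overlapped between the groups at log2 fold changes of -0.37 (Frzb) to 0.77 (Sfrp5). Of the 9, 3 were higher at an unadjusted p under 0.05 with edgeR, and DESeq2 and voom each called 1 higher, beside 11.2%, 6.12% and 5.79% of all genes.

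**Figure D4:**
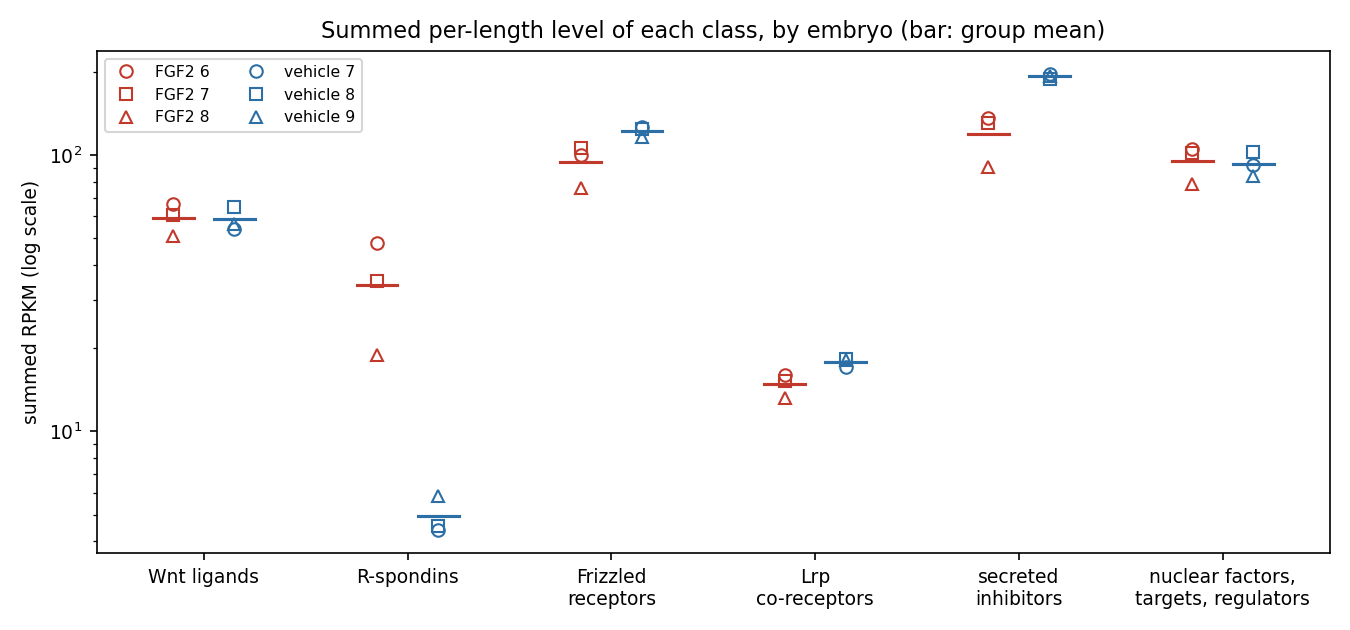
Summed RPKM of each class in each embryo, on a log axis, FGF2 embryos to the left of vehicle embryos, bars at the group means. R-spondins are higher in all FGF2 embryos, secreted inhibitors, Frizzled receptors (without Fzd10) and co-receptors are lower, and ligands and the nuclear class overlap between the groups.

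Of the 9 nuclear factors, targets and intracellular regulators, Sp5 rose (11.1%, beside 2.68% of all genes) and 8 did not pass. Sp5, a zinc finger repressor and one of the most direct known targets of beta-catenin, lies at chromosome 2, 70312980 to 70315786. It had 9.71, 11.997 and 7.11 CPM in the FGF2 embryos, against 2.03, 1.74 and 1.90 CPM in the vehicle embryos. The lowest FGF2 embryo stood more than 3-fold above the highest vehicle embryo, and the log2 fold change was 2.35 ± 0.22 (SE, edgeR adjusted p = 0.00244), with 2.15 to 2.52 in the fits without 1 embryo.

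The stretch of 250 bases before the start of Sp5 is shown because it is the only target past the test with an entry in the RefSeq promoter table (GRCm38.p6), beside those of Dkk1 and Axin2, which were chosen after their values were seen. Capitals mark the letters CTTTGA, or TCAAAG, the same letters on the other strand. CTTTGA, called the core below, is a form of the site that TCF and LEF factors are known to bind. Other forms of that site were not searched or marked.
Sp5, chr2:70474673-70474922, plus strand: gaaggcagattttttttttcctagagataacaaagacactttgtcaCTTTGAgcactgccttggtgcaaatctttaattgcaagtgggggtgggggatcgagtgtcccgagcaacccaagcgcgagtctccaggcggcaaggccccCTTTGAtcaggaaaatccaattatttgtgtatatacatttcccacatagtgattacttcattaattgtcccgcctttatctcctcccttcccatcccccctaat
Dkk1, chr19:30549497-30549746, minus strand: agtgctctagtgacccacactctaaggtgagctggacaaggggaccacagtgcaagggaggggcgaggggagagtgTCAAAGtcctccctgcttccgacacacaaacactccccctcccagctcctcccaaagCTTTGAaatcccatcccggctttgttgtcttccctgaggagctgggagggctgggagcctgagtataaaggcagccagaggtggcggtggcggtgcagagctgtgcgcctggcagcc
Axin2, chr11:108920099-108920348, plus strand: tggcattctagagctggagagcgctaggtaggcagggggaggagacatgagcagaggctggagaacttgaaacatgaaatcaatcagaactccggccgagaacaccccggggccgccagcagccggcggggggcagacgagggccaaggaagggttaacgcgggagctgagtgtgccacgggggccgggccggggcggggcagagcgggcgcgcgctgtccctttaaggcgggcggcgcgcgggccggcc
The Sp5 window held the core 2 times, beginning 204 and 104 bases before the start. The Dkk1 window held it once on each strand, at 117 and 174 bases, and the Axin2 window did not hold these letters. The core stood in 13.8% of all 32851 promoter windows of this length and in 7 of the 43 windows of 35 members with an entry (16.3%). It occurred at least 2 times in 1.37% of all windows, and in 3 of those 43 (those of Sp5 and Dkk1 and 1 window of Lef1). A match is a string of letters and was not tested as a binding site.

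Axin2 and Lef1, the other widely used readouts of beta-catenin here, did not pass the test. Axin2, a negative regulator that beta-catenin induces, had 97.4, 75.6 and 54.4 CPM in FGF2 6, 7 and 8, against 51.8, 52.8 and 57.3 CPM in vehicle 7, 8 and 9. FGF2 6 and FGF2 7 were above every vehicle embryo and FGF2 8 was among them, and Axin2 did not pass (0.49 ± 0.19, adjusted p = 0.213). Its unadjusted p with edgeR was 0.0325, and it was called higher in 2 of 18 alternatives. Lef1, both a nuclear partner of beta-catenin and its target, had 70.3, 67.6 and 42.8 CPM against 55.4, 69.4 and 60.6 CPM (-0.04 ± 0.19, adjusted p = 0.936). It overlapped fully between the groups, and its sign turned with library totals in place of TMM scaling (0.01).

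Tcf7l1, a TCF factor that mostly represses and the member of this class with the highest mean RPKM, had 124, 122 and 84.9 CPM in the FGF2 embryos, against 162, 179 and 126 CPM in the vehicle embryos. The groups were separated by a small gap in CPM, over a span shared with other genes, and overlapped in RPKM. The gene did not pass (-0.50 ± 0.18, adjusted p = 0.179). Tcf7, which mostly activates, had 19.3, 17.1 and 14.1 CPM against 13.4, 13.4 and 12.3 CPM (0.37, adjusted p = 0.186), and Dact1, an intracellular modulator that binds Dishevelled, 39.0, 47.1 and 54.4 CPM against 30.9, 33.2 and 37.1 CPM (0.47, adjusted p = 0.109). Nkd1, a feedback inhibitor that binds Dishevelled, averaged 66.2 ± 4.06 CPM in the FGF2 embryos, against 65.6 ± 6.81 CPM in the vehicle embryos (0.01, adjusted p = 0.957). With edgeR 5 of the 9 were higher at an unadjusted p under 0.05 and 1 was lower. DESeq2 called 3 and voom 5 of the 9 higher. Over all genes these shares were 11.2% and 8.13% at the unadjusted p, 6.12% with DESeq2 and 5.79% with voom. The summed RPKM of the class was 95.2 ± 14.4 in the FGF2 embryos, against 92.7 ± 9.33 in the vehicle embryos (exact permutation test, p = 0.9).

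**Figure D5:**
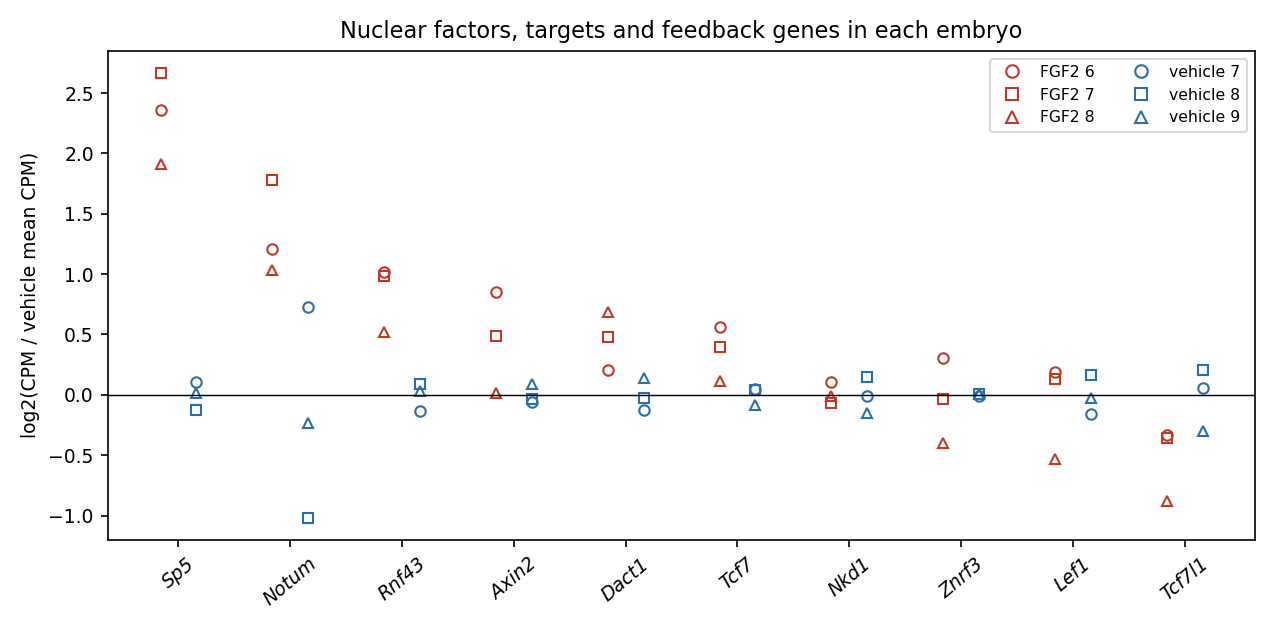
Log2 of the CPM in each embryo over the mean CPM of the vehicle embryos, for the 9 nuclear factors, targets and regulators and for the inhibitor Notum, which is also a known feedback gene; FGF2 embryos stand left of vehicle embryos. Sp5 is the only one past the test, and FGF2 8 lies among the vehicle embryos for Axin2 and below them for Lef1 and Znrf3.

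A further list held 75 genes of the Wnt system outside the 50, of which 73 were tested (Wnt8a and Dkk4 were not). Of these, 6 were higher (8.22%, beside 2.68% of all genes), 4 were lower (5.48%, beside 0.951%) and 63 did not pass. Their median log2 fold change was -0.04. The FGF2 embryos lay wholly above the vehicle embryos for 11 (15.1%, beside 14.6% of all genes). They lay wholly below them for 16 (21.9%, beside 13.6%). Without 1 embryo the number called higher ran from 0 (without vehicle 8, with 9 at an unadjusted p under 0.05) to 10 (without FGF2 8), with 2 without FGF2 6, vehicle 7 or vehicle 9 and 3 without FGF2 7. The number called lower was 2 without any 1 vehicle embryo and 11 without FGF2 8. Over all genes, 0.807% were called higher and 0.165% lower without vehicle 8, and 4.31% and 4.38% without FGF2 8. The genes that rose were Lgr4, the receptor kinase Ror1 (0.71), and the secreted proteins Sost (2.82, at under 0.4 CPM in every embryo), Sostdc1 (3.27) and Cthrc1 (0.69), together with the nuclear factor Tcf7l2 (2.01). Tcf7l2, also used above as a thalamus marker, had 129, 53.2 and 155 CPM in FGF2 6, 7 and 8, against 28.1, 31.5 and 24.3 CPM in vehicle 7, 8 and 9, so that FGF2 7 stood well below the other FGF2 embryos.

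Of 7 genes of planar polarity, the branch that orients cells without beta-catenin, 3 fell and 0 rose. Of all genes 0.951% fell and 2.68% rose. The atypical cadherin Celsr1 had 90.6, 114 and 106 CPM in the FGF2 embryos, against 209, 211 and 187 CPM in the vehicle embryos, and fell by 0.96 ± 0.10 on the log2 scale (SE, edgeR adjusted p = 0.00394). The membrane protein Vangl2 had 195, 191 and 204 CPM against 313, 340 and 304 CPM, and fell by 0.70 ± 0.08 (adjusted p = 0.00486). In both genes all FGF2 embryos lay close together and well below the vehicle embryos, and both were called whichever embryo was left out. With the presence of Y-linked reads as a covariate 0 of the 73 were called, where that fit called 5 of all genes (8 higher and 7 lower at an unadjusted p under 0.05, beside 5.55% and 3.03% of all genes). That fit again compares the FGF2 embryos with vehicle 7 alone. Without the covariate, Celsr2, a relative of Celsr1, fell by 0.42 and the beta-catenin cofactor Bcl9l by 0.54. Of the 22 intracellular signal transduction genes, 0 were called with edgeR and 4 had an unadjusted p under 0.05 (beside 19.3% of all genes). The calls of Ror1, Sost, Cthrc1 and Celsr2 were lost without any 1 embryo other than FGF2 8 (adjusted p up to 0.137, 0.128, 0.178 and 0.203), that of Tcf7l2 without any 1 other than FGF2 7 (up to 0.138) and also without a low-count filter (0.105), with voom (0.0938) and on RPKM (0.0565 to 0.116), that of Bcl9l without any 1 vehicle embryo (up to 0.0747) and that of Sostdc1 without vehicle 8 (0.0640).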

How the data were processed

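RNA-seq libraries of 3 FGF2 and 3 vehicle embryos were grouped by their titles. The submitters' processing notes name bedtools 2.12.0, Bowtie2 2.1.0.0, TopHat2 2.0.9 and CASAVA 1.8 and the build mm9 (NCBIM37), without the role of each. The deposited counts are whole numbers of alignments over the span of each gene, introns included, so reads of overlapping genes count for each of them. The use of strand and the tool behind the authors' RPKM values are not stated by the labels or file headers. RPKM was joined by symbols that occur once and used for levels between genes.

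Counts were tested over all 6 libraries with edgeR 4.0.16 in R 4.3.3 (filterByExpr, TMM scaling, glmQLFit with robust estimation, glmQLFTest), with p-values adjusted over all 21983 genes by the Benjamini-Hochberg method. CPM values are scaled by TMM library sizes, and SDs are over 3 embryos. The labels do not say whether embryos come from separate litters, so p-values measure only the spread between these samples. Summed RPKM was compared by exact permutation of 3 against 3 embryos, whose smallest two-sided p is 0.1. Reads carry no molecular identifiers, so the counting interval (exact binomial) covers counting error only.

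The members, gene lists and tests were chosen with earlier results of these data known. Values in every embryo are given for members past an adjusted p of 0.05, for members with groups that did not overlap, a log2 fold change of at least 1 in size and a mean of at least 1 CPM, for the member of each class with the highest mean RPKM, and for Axin2 and Lef1. Members outside this rule with values in every embryo (Fzd1, Lrp5, Rnf43, Znrf3, Dkk2, Notum, Sfrp2, Tcf7 and Dact1), and the ways of grouping ligands, were chosen after their values were seen. Alternatives used RLE factors, library totals, other low-count filters, DESeq2 1.42.0, voom with sample quality weights (limma 3.58.1), the embryo number as a block, Y-linked reads as a covariate, genes overlapping no other span, halved counts of vehicle 9, RPKM on a log2 scale in limma with a pseudocount of 1 or 0.1, and 1 embryo left out. The scripts were tested on simulated data. Gene positions are 1-based and as in the files, and promoter sequences are RefSeq's (GRCm38.p6). Of the marker lists of other tissues, 1 is not reported here.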

Additional observations from a re-analysis of the deposited data

How the results depend on the processing

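The 13 members past the test kept their direction in each of up to 19 alternatives that tested them. These alternatives reuse the same libraries, in which the groups of all 13 did not overlap. A turned sign was therefore hardly possible, and the kept direction is no further evidence. Counts of calls moved more. Members called higher, 10 with edgeR, numbered 4 to 14 with 1 embryo left out, 5 with limma on log2(RPKM + 1) without a filter, and 0 with Y-linked reads as a covariate. Members called lower, 3 with edgeR, numbered 0 to 6 with 1 embryo left out, 8 with DESeq2, 7 with voom, 1 with unfiltered RPKM and 0 with the covariate. Other pathway genes called higher, 6 with edgeR, numbered 0 to 10 with 1 embryo left out, 11 with voom, 3 with log2(RPKM + 1) and 3 with log2(RPKM + 0.1), 1 with unfiltered RPKM and 0 with the covariate. Those called lower, 4 with edgeR, numbered 2 to 11 with 1 embryo left out, 7 with DESeq2, 10 with voom, 2 with unfiltered RPKM and 0 with the covariate. The fit with the covariate compares the FGF2 embryos with vehicle 7 alone. The shares of all genes called moved as well. With edgeR 2.68% were higher and 0.951% lower, with DESeq2 6.12% and 3.65%, and with voom 5.79% and 4.49%. Log2(RPKM + 1) gave 2.29% and 0.82%, log2(RPKM + 0.1) 2.33% and 0.77%, and unfiltered RPKM 0.909% and 0.167%. Without vehicle 8 the shares were 0.807% and 0.165%, and without FGF2 8 they were 4.31% and 4.38%. The cause of these moves was not tested. Over all genes, the share of calls that were higher was 73.8% with TMM and edgeR, 62.7% with DESeq2, 56.4% with voom and 49.6% without FGF2 8. The difference in the share of Sfrp1, FGF2 minus vehicle, was -18.6 percentage points by RPKM and -13.4 by CPM over the gene span.

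Among members, calls were also lost without a low-count filter (Wnt8b, adjusted p = 0.0526), with library totals or a minimum of 1 CPM (Fzd8, 0.0691 and 0.0553), on RPKM with either pseudocount (Wnt9a and Fzd8, 0.0637 to 0.103) and on unfiltered RPKM (these 2, Wnt3, Wnt3a, Wnt5a, Rspo1 and Sfrp1, 0.0507 to 0.173). Calls were gained in at least 1 alternative by 11 members not past the main test. These were Wnt7b, Fzd1, Fzd2, Fzd10, Lrp5, Lrp6, Dkk1, Axin2, Tcf7, Rnf43 and Dact1.

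The groups share only the numbers 7 and 8, the labels do not say what a number stands for, and same-numbered embryos did not deviate together (correlations of -0.058 and -0.029). With the number as a block, the other pathway genes called higher numbered 3, beside 2.53% of all genes (2.68% without the block). The calls of Wnt3a, Wnt7a, Wnt8b and Wnt9a were lost with it. Of the other pathway genes, Ror1, Celsr2, Sost, Tcf7l2 and Bcl9l lost their calls with the block (edgeR adjusted p 0.0802 to 0.206). The block turned the sign of Rspo4 (-0.061) and Nkd1 (-0.105), neither called.

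The sign turned for 7 members in all, with an adjusted p of at least 0.352 wherever it did. Lef1 was at 0.0099 with library totals, 0.107 with voom and 0.122 with the covariate, and Znrf3 at 0.0332 with library totals, 0.0038 with a minimum of 1 CPM and 0.0974 with voom. Wnt10a was at 0.0743 with voom and 0.0586 with the covariate, Rspo4 at -0.322 with voom and -0.0043 with unfiltered RPKM, and Nkd1 at -0.0102 with voom. With 1 embryo left out, Lef1 lay between -0.1601 and 0.158, Znrf3 between -0.202 and 0.147, Wnt10a between -0.301 and 0.139, Rspo4 between -0.348 and 0.254, Nkd1 between -0.0593 and 0.0912, Wnt16 between -0.331 and 0.553 and Wnt6 between -0.351 and 0.0162. The same alternatives were applied gene by gene to the other pathway genes past the test after the data were seen, and none of these turned. Depth limits Wnt1, Wnt16, Sfrp5, Rspo4 and Sost, all under 1 CPM in the mean of both groups.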
